A study of Mus musculus with 6 samples.

Results

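The 9 genes described here are interferon-response genes of the mouse: Rsad2, Sting1, Ifitm1, Ifitm3, Ifi27l2a, Tgtp1, Tgtp2, Gm12185 and Casp12. They were chosen by gene symbol among the 817 genes found in either deposited table. Of these 9, 7 had estimated counts in a list of 232 genes (the count list), and Ifitm3 and Ifi27l2a stood in a further list of 602 genes whose scale is not given (the second list). The question was whether transfected small interfering RNA (siRNA) came with a higher level of these genes.

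RNA was sequenced from 6 libraries of cultured mouse cells. The siRNA group (3 libraries, labelled LHX8 deficient) received siRNA against Lhx8, a LIM homeobox transcription factor, and the vehicle group (3 libraries, labelled wild-type) was treated with the transfection reagent Turbofectamine. No siRNA is named for the sequenced vehicle group, whereas other experiments of the study, including one on 3T3-L1 cells, had a non-silencing siRNA as control. If the vehicle group held no siRNA, loss of Lhx8 and the presence of any transfected siRNA cannot be told apart. The labels name 3T3-L1 preadipocytes, with a line number that differs in each sample, and the study itself speaks of cultured adipocytes. Nothing in the labels says that the libraries came from separate cultures, so the p-values reflect spread among these 6 samples only, which may be technical. Lhx8 itself is in neither list and its knockdown was not analysed here.

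Cells recognise foreign RNA and DNA through sensor proteins that signal through adaptors, such as STING for cytosolic DNA, to switch on type I interferons. Secreted interferon then acts through its receptor and the STAT and IRF factors on response elements in promoters, and the induced genes block virus entry, replication or the growth of intracellular parasites. Short RNA duplexes can engage some of these sensors, which is why interferon-response genes are commonly examined after transfection of siRNA. Fibroblast-lineage and fat cells respond to interferon as most cell types do.

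The promoter sequences are shown because some of the members hold response elements that the choice by symbol did not use. Of the 9 members, 7 had a promoter window in the RefSeq table (GRCm38.p6), from 250 bases before to 50 bases after the start site, and Sting1 and Ifi27l2a did not. Which build the study used is not given in the sources read. The core of the interferon-stimulated response element, searched on both strands as GAAA and GAAA parted by any 2 bases, was in 5 of the 7 windows and in those of 3.99% of the 27025 genes of the table. The gamma-activated site, searched as TTCNNNGAA, which reads the same on both strands, was also in 5 of the 7 and in 9.55% of all genes. Both motifs were in 4 of the 7 windows, against 0.54% of all genes. Of these 4, Tgtp1, Tgtp2 and Gm12185 are related neighbours with similar windows and are not separate cases. In Ifitm3 the gamma-activated site overlaps the downstream response element. In the stretches below, each on the minus strand of its chromosome except that of Casp12, capitals mark the matches.
Rsad2, chr12:26456543-26456592: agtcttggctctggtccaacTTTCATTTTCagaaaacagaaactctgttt
Tgtp1, chr11:48992294-48992354: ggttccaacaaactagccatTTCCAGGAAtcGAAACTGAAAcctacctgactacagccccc
Tgtp2, chr11:49064253-49064313: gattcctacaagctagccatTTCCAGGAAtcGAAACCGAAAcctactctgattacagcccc
Gm12185, chr11:48927228-48927288: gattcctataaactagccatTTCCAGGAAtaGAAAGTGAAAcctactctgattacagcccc
Ifitm3, chr7:141010715-141010744: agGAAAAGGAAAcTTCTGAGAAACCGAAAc
Casp12, chr9:5345354-5345468: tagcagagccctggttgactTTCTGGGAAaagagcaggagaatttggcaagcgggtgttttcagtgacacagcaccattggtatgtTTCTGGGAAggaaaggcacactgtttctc

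The match in Rsad2 lies 120 to 111 bases before the start site and on the opposite strand. In Tgtp1, Tgtp2 and Gm12185 the gamma-activated site starts 88, 81 and 86 bases before the start site and is parted from the response element by 2 bases. The windows of Tgtp2 and Gm12185 were 96.6% identical, and that of Tgtp1 was 73.3% identical to Tgtp2 and 68.6% to Gm12185. Casp12 held only gamma-activated sites, and the window of Ifitm1 held neither motif. A match describes letters in a window and does not show that a factor binds there.

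Library depth is not known, since the tables list only selected genes. The listed counts of vehicle 3 summed to 130467, against 24314 to 28919 in the other 5 libraries, and vehicle 3 was the highest library in 201 of 232 genes (86.6%). In the second list the medians of the 6 libraries lay between 60.1 and 67.2. Every comparison below is therefore given against vehicle 1 and 2 as well as against all vehicle libraries. In the count list the smallest difference between group means was 1.000 on the log2 scale over the 226 genes with counts in both groups, and 30 genes (13.3%) had a difference smaller than 1.1, among them 4 of the 7 members. The members were thus listed for a difference between these same groups, and their difference from all vehicle libraries is not independent evidence of a direction. Few defining markers were listed to check the cell label: of 14 preadipocyte and fibroblast markers only Pdgfra, Ly6a and Col3a1 were listed, and of 10 adipocyte markers only Adipoq and Lpl, all in the second list.

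**Figure D1:**
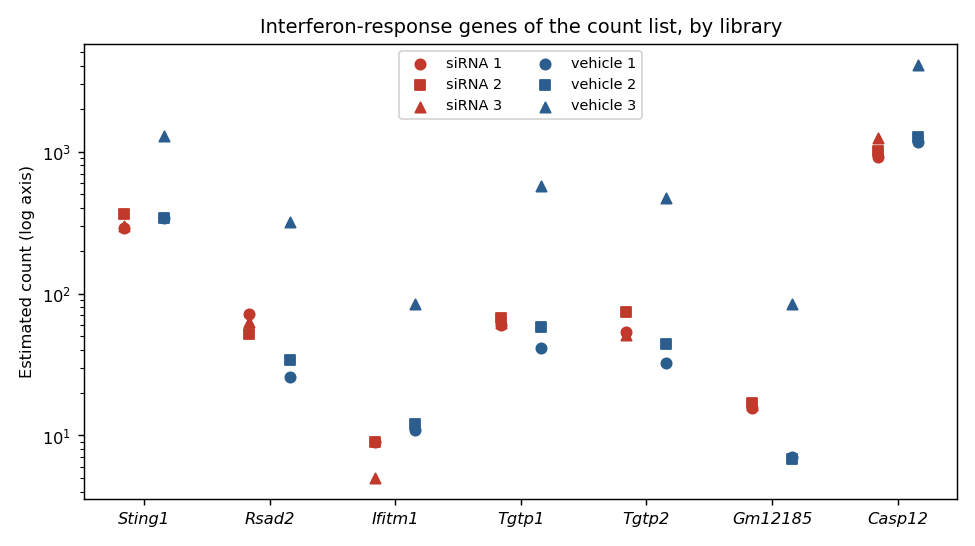
Estimated count (log axis) of the 7 members of the count list in each library, siRNA in red and vehicle in blue, with marker shape giving the replicate number. Vehicle 3 is the highest library for all 7 genes, while Rsad2, Tgtp1, Tgtp2 and Gm12185 are higher in every siRNA library than in vehicle 1 and 2.

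Rsad2 (ENSMUSG00000020641, chr12:26442743-26456452) encodes viperin, an enzyme that makes a chain-terminating nucleotide and is strongly induced by interferon. Its estimated counts were 72, 52 and 63 with siRNA, against 26, 34 and 320 for vehicle 1 to 3. The siRNA libraries were all above vehicle 1 and 2 and all below vehicle 3. The mean was 62.3 ± 10.0 (SD, n = 3) with siRNA and 30 ± 5.66 (SD, n = 2) in vehicle 1 and 2, a ratio of 2.08. Against all vehicle libraries the ratio was 0.492. With edgeR's quasi-likelihood test the log2 fold against vehicle 1 and 2 was 1.05 ± 0.27 (SE), with an adjusted p of 0.189. Against all vehicle libraries it was −1.02 ± 1.11 with an adjusted p of 0.364 in edgeR. With 1 common library size, the direction of the Rsad2 difference therefore turned on 1 control library, and neither difference passed the threshold of 0.05. It also depended on scaling: with the TMM scaling described below, the edgeR log2 fold against all vehicle libraries was 0.78 ± 0.36 (adjusted p 0.650).

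The T-cell specific GTPases Tgtp1 (ENSMUSG00000078922) and Tgtp2 (ENSMUSG00000078921) and Gm12185 (ENSMUSG00000048852) belong to the interferon-inducible GTPases, which in mouse attack the vacuoles of intracellular parasites. They lie together on chromosome 11, within 159557 bases from the start of Gm12185 (chr11:48904656-48927182) over Tgtp1 (chr11:48985329-48992246) to the end of Tgtp2 (chr11:49057196-49064212). Gm12185 had 15.6, 17.0 and 16.4 counts with siRNA and 7, 6.8 and 84.8 in vehicle 1 to 3. The 3 siRNA libraries were close to one another and above vehicle 1 and 2, with vehicle 3 far above all of them. Against vehicle 1 and 2 the ratio of means was 2.37 and the log2 fold 1.21 ± 0.30 (SE), with an edgeR adjusted p of 0.189. Against all vehicle libraries the log2 fold was −1.01 ± 1.08 with an edgeR adjusted p of 0.359.

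Tgtp1 and Tgtp2 are close to identical, and the sequences are shown because they decide how far their counts can be read apart. In GENCODE vM21 their coding sequences of 1248 bases differed at 4 positions, G270C, C408T, C729T and C735A, counted from the first coding base with the base of Tgtp1 first. Of the 2724 windows of 100 bases in the Tgtp1 transcript, 80% also occur in Tgtp2, and none occurs in Gm12185, whose coding sequence was 76.5% identical. The stretch of coding bases 646 to 735, on the minus strand, holds the last pair of differences, in capitals.
Tgtp1, chr11:48987142-48987231: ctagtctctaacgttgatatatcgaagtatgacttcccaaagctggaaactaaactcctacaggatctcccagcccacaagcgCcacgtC
Tgtp2, chr11:49059009-49059098: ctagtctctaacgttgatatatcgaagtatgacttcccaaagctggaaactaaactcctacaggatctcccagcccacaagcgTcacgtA

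The deposited values of both genes were fractional, and their sum was whole within 0.01 in 4 of the 6 libraries (0.12 from a whole number in siRNA 3 and 0.06 in vehicle 2), so each alone is uncertain. Tgtp1 had 60.05, 67.1 and 62.0 counts with siRNA and 41.5, 57.7 and 574 in vehicle 1 to 3. Tgtp2 had 53.9, 73.9 and 50.9 with siRNA and 32.5, 44.3 and 470 in vehicle 1 to 3. Each siRNA library exceeded vehicle 1 and 2 for both genes, and vehicle 3 exceeded all of them. Summed, the pair had 114, 141 and 113 counts with siRNA against 74, 102 and 1044, a ratio of 1.39 to vehicle 1 and 2. The edgeR log2 fold of the sum was 0.48 ± 0.23 (SE) against vehicle 1 and 2, with an adjusted p of 0.444, and −1.73 ± 1.06 against all vehicle libraries, with an adjusted p of 0.317. Taken singly against vehicle 1 and 2, edgeR gave 0.35 ± 0.25 for Tgtp1 (adjusted p 0.591) and 0.63 ± 0.29 for Tgtp2 (adjusted p 0.441). The fold of Tgtp1 was 0.12 without vehicle 1 and 0.62 without vehicle 2.

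Sting1 (ENSMUSG00000024349) encodes the STING adaptor, which relays the detection of cytosolic DNA to interferon induction. Estimated counts of Sting1 were 291, 364 and 298 with siRNA and 338, 342 and 1283 in vehicle 1 to 3. Vehicle 1 and 2 fell inside the range of the siRNA libraries, and only vehicle 3 lay outside it. The edgeR log2 fold was −0.10 ± 0.16 (SE) against vehicle 1 and 2 (adjusted p 0.804) and −1.04 ± 0.92 against all vehicle libraries (adjusted p 0.323). Casp12 (ENSMUSG00000025887, chr9:5345442-5373034), a caspase of the endoplasmic reticulum, had 915, 1007 and 1249 counts with siRNA and 1165, 1262 and 4090 in vehicle 1 to 3. Its siRNA range overlapped vehicle 1 and lay below vehicle 2 and 3. The log2 fold was −0.20 ± 0.17 against vehicle 1 and 2 in edgeR, with an adjusted p of 0.646, and −1.04 ± 0.80 against all, with an adjusted p of 0.317.

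Ifitm1 (ENSMUSG00000025491, chr7:140967429-140969827) and Ifitm3 (chr7:141009590-141010744) encode membrane proteins that hinder virus entry. Their coding sequences were 81.3% identical with no 100-base window in common. Ifitm1 was scarce, with 9, 9 and 5 counts with siRNA and 11, 12 and 84 in vehicle 1 to 3. It was the only member of the count list with every siRNA library below every vehicle library, by 2 counts at the nearest. An exact two-sided permutation test gave p = 0.1 against all vehicle libraries and p = 0.2 against vehicle 1 and 2, the smallest each design allows. The edgeR log2 fold was −2.20 ± 1.12 against all (adjusted p 0.317) and −0.58 ± 0.41 against vehicle 1 and 2 (adjusted p 0.581).

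Ifitm3, in the second list, had values of 626, 536 and 585 with siRNA and 651, 733 and 673 in vehicle 1 to 3. Every siRNA value was below every vehicle value, as in 53.5% of the 273 genes of this list with genuine values in all libraries. The means were 582 ± 45.0 with siRNA and 686 ± 42.4 with vehicle (SD, n = 3 each). On log2(value + 0.1) limma gave a difference of −0.24 ± 0.055 (SE) against all vehicle libraries (adjusted p 7.4e-04) and −0.25 ± 0.061 against vehicle 1 and 2 (adjusted p 0.000718). Without vehicle 2 the latter was −0.16 and missed the threshold. With each library centred on its median over the tested genes, the log2 difference of Ifitm3 against vehicle 1 and 2 was −0.47 in limma. Centring also moved the median over all genes tested from −0.10 to −0.32, so the shift was not particular to Ifitm3. Overlap was checked with medians over genes with genuine values in every library, and the groups of Ifitm3 then overlapped. Ifi27l2a (chr12:103433873-103443680), a small membrane protein of the interferon-induced ISG12 family, stood at 46.3 and 41.0 for siRNA 1 and 2, against 65.2, 61.5 and 80.4 for vehicle 1 to 3. The cell of siRNA 3 was in date format and was not used, so n = 2 with siRNA. The log2 difference in limma was −0.65 ± 0.090 against all vehicle libraries (adjusted p 7.11e-06) and −0.54 ± 0.080 against vehicle 1 and 2 (adjusted p 2.47e-06). Exact two-sided permutation tests gave Ifi27l2a p = 0.2 against all vehicle libraries and p = 0.333 against vehicle 1 and 2. For Ifitm3 the same permutation tests gave p = 0.1 and p = 0.2. Both genes thus fell with siRNA in limma. Of 496 genes tested in this list, however, 48.8% fell and 98.4% passed in either direction, so passing sets neither gene apart from the list. Nearly every listed gene thus differed between these same groups, and the limma p-values are not independent evidence of a direction. With vehicle 1 and 2 alone, 48.9% of 409 genes fell and 97.3% passed. The 5 listed preadipocyte and adipocyte markers were lower with siRNA in the same list. Ly6a was at 233 to 274 with siRNA and 323 to 340 with vehicle, Col3a1 at 344 to 354 and 380 to 438, Lpl at 279 to 299 and 335 to 377, Pdgfra at 40.9 to 43.4 and 49.5 to 52.4, and Adipoq, with 2 genuine values a group, at 2.83 to 3.47 and 8.76 to 8.96. Their part in the values of Ifitm3 and Ifi27l2a was not tested. Because these are bulk samples, fewer cells of a type and less RNA per cell cannot be told apart.

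**Figure D2:**
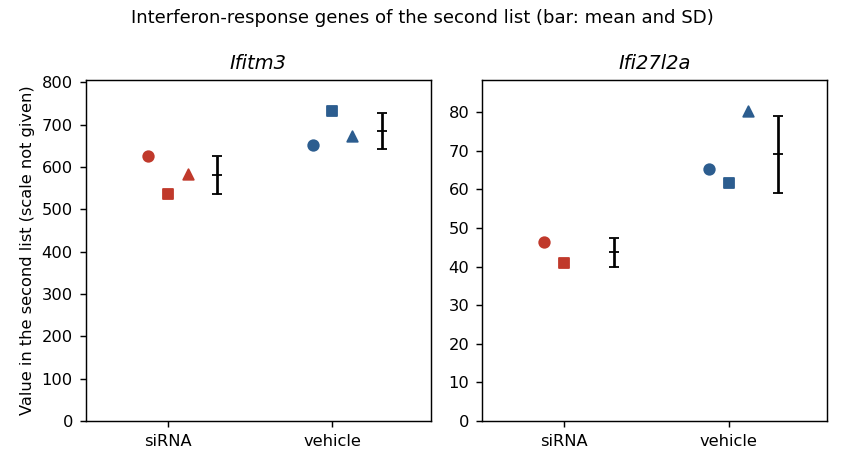
Values of Ifitm3 and Ifi27l2a in each library (scale not given), with the mean and SD of each group as bars. Every siRNA value is below every vehicle value for both genes, and Ifi27l2a has 2 siRNA values because the third was a date-format cell.

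Among the 7 members of the count list, 4 had every siRNA library above vehicle 1 and 2 (Rsad2, Tgtp1, Tgtp2 and Gm12185), where 14.7% of all 232 genes did. Tgtp1 and Tgtp2 share reads and are not separate evidence. Only Ifitm1 had every siRNA library below, where 12.9% of all genes did. Exact permutation tests gave p = 0.2 for each of these 5 genes, the smallest that 3 against 2 libraries allow. In edgeR 0 of the 7 members passed the adjusted threshold against vehicle 1 and 2, and 0 of 201 genes did (0%), while 2 members (Rsad2 and Gm12185) had an unadjusted p under 0.05, as did 10.9% of all genes. DESeq2 and limma-voom also called 0 members. The members' median log2 fold was 0.35, which is the fold of Tgtp1 itself, beside −0.10 over all genes tested. With Tgtp1 and Tgtp2 summed as 1 gene it was −0.10, with 2 folds positive and 3 negative, beside −0.10 over all genes. With all 7 members kept apart, the median was 0.12 beside 0.05 without vehicle 1 and 0.62 beside −0.07 without vehicle 2. Both values are again the fold of Tgtp1 itself.

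Against all vehicle libraries, 0 of the 7 members had every siRNA library higher (6.03% of all genes) and 1, Ifitm1, had every siRNA library lower (12.5%). All 7 log2 folds were negative, as were 89.2% of all 232, and the members' median was −1.04 beside −1.55 over all genes. In edgeR 0 members and 0 of 232 genes (0%) passed, with 0 members and 11.6% of all genes at an unadjusted p under 0.05. With the libraries scaled by TMM, the trimmed mean of M-values, the median over all genes moved to −0.12 and that of the members to 0.16, and 6 of the 7 folds were positive, Ifitm1 being the exception. Such a scaling assumes that most listed genes do not differ, which selected genes need not meet.

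**Figure D3:**
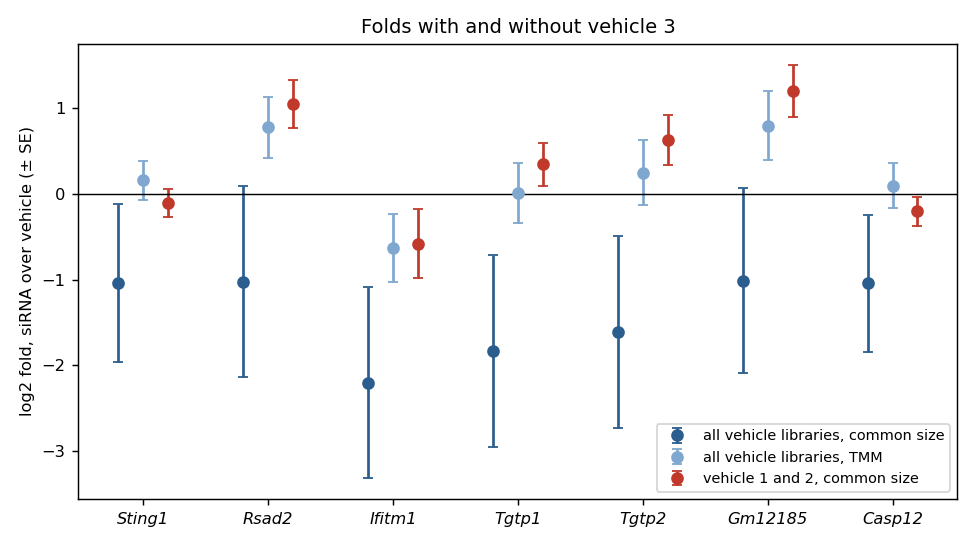
Log2 fold (siRNA over vehicle) with its SE for the 7 members, fitted by edgeR against all vehicle libraries with 1 common library size, against all with TMM, and against vehicle 1 and 2. Rsad2 and Gm12185 change from about −1 to above 0.7 when vehicle 3 is rescaled or left out, and Ifitm1 is below 0 in each fit.

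Vehicle 3 was 10.7 times the mean of vehicle 1 and 2 for Rsad2, 11.6 times for Tgtp1, 12.2 times for Tgtp2 and 12.3 times for Gm12185. The ratio was 7.30 for Ifitm1, 3.77 for Sting1 and 3.37 for Casp12. Over 222 genes the median of this ratio was 5.72, with quartiles of 3.64 and 10.2. Rsad2 and the GTPases stood above the upper quartile, and Sting1 lay in the lower part, with 27.9% of genes below it. All 7 members were listed with a lower mean for siRNA, by a log2 difference of at least 1.000. Where siRNA was above vehicle 1 and 2, that listing alone requires a high vehicle 3. The places of the members thus follow in part from the listing and are not separate evidence. Leukocyte markers moved with vehicle 3 in part: of 14 markers 3 were listed, with summed counts of 82 to 100 with siRNA and 67, 62 and 265 in vehicle 1 to 3. Itgb2 had 213 counts and Cd33 had 51 in vehicle 3, whereas Cd207 had 1 there. Their ratios of vehicle 3 to the mean of vehicle 1 and 2 were 12.9, 25.5 and 0.0217, beside the median of 5.72 over all genes. Cd33 had only 1 and 3 counts in vehicle 1 and 2. Of 6 endothelial markers only Clec14a was listed, at 46 to 68 with siRNA and 69, 56 and 432 in vehicle 1 to 3, a ratio of 6.91. The part of other cell types in these results was not tested.

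**Figure D4:**
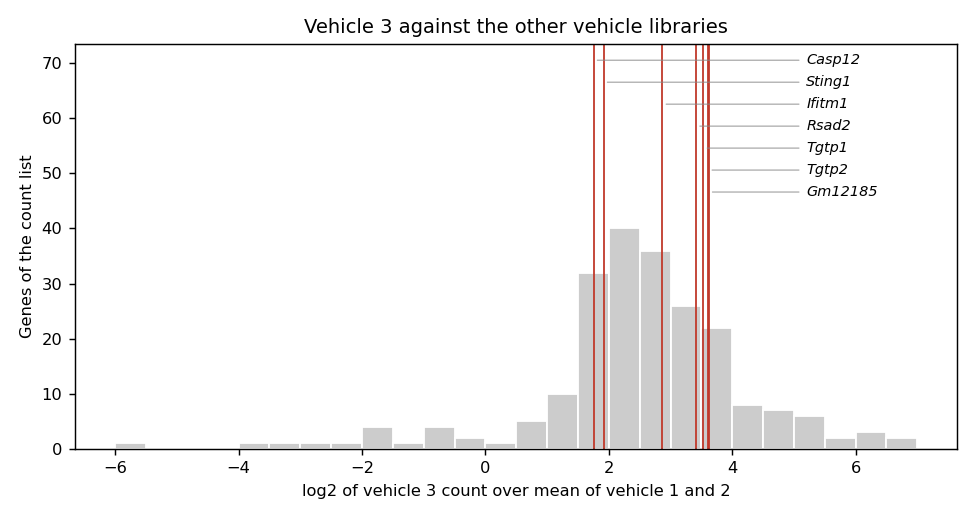
Histogram of the log2 ratio of vehicle 3 to the mean of vehicle 1 and 2 for the 216 genes of the count list with counts above 0 in both, with red lines at the 7 members. Casp12 and Sting1 lie left of the middle of the distribution, and Rsad2, Tgtp1, Tgtp2 and Gm12185 lie together on its right. The places of the members follow in part from the listing of genes by group difference.

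Expressed per 10000 listed counts, which removes the difference in total, Rsad2 was at 29.6, 20.1 and 25.4 with siRNA and 8.99, 13.8 and 24.5 in vehicle 1 to 3. Vehicle 3 then fell among the siRNA libraries. Gm12185 was at 6.43, 6.55 and 6.60 with siRNA and 2.42, 2.77 and 6.497 in vehicle, again overlapping through vehicle 3 alone. The total itself comes from genes listed by group difference, 86.6% of which were highest in vehicle 3. Rsad2 and Gm12185 were listed near the smallest difference, with siRNA to vehicle ratios of 0.492 and 0.497. Their match of vehicle 3 to the siRNA level thus follows in part from the listing and is not separate evidence. The summed pair Tgtp1 and Tgtp2 had the same mean share in both groups, with a ratio of 0.997 and vehicle 3 the highest library at 80.0. Ifitm1 stayed lower with siRNA, at 3.70, 3.47 and 2.01 against 3.80, 4.88 and 6.44. On this scale 0 of the 7 members were higher without overlap (8.62% of all genes) and 1 was lower (5.17%). With counts divided by the median ratio of all listed genes, Gm12185 was also higher without overlap, at 21.6 to 22.2 against 8.80, 8.78 and 19.5, as were 9.48% of all genes.

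**Figure D5:**
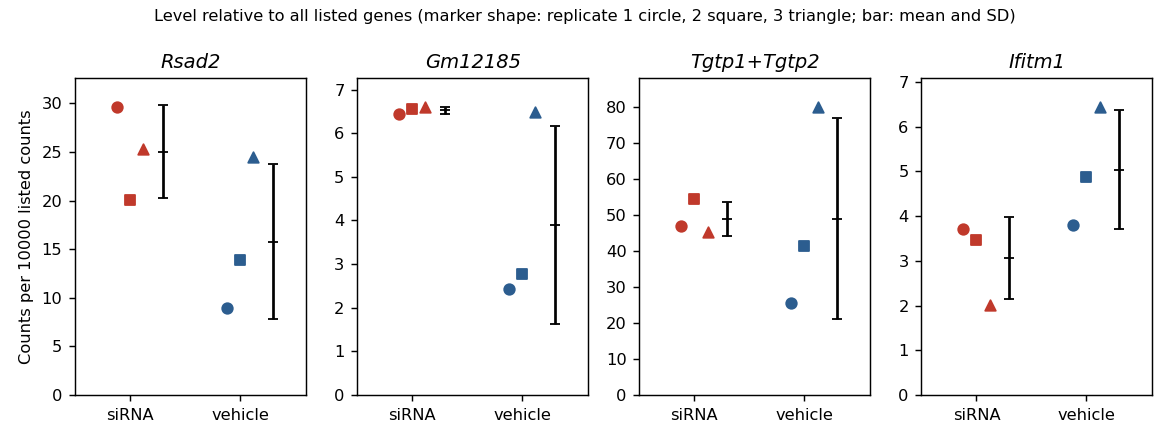
Counts per 10000 listed counts for Rsad2, Gm12185, the sum of Tgtp1 and Tgtp2, and Ifitm1 in each library, with the mean and SD of each group as bars. Vehicle 3 (blue triangle) lies at the siRNA level for Rsad2 and Gm12185 and is the highest library for the Tgtp pair and Ifitm1. The match for Rsad2 and Gm12185 follows in part from the listing of genes by group difference.

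Of a wider list of 202 interferon-response genes, 13 were in the count list, the 7 members among them, and 8 in the second list. Against vehicle 1 and 2 in edgeR, 8 of the 13 had a positive fold (39.8% of all genes) and 5 a negative one (59.2%). Of the 13, 0 passed the adjusted threshold, and their median was 0.30 beside −0.10 over all genes. The 6 genes outside the members had 4 positive and 2 negative folds, so the count over 13 largely repeats the members. Against all vehicle libraries all 13 were negative, 0 passed, and the median was −1.13 beside −1.55. All 4 listed interferon-inducible GTPases were positive against vehicle 1 and 2, the one outside the members being Ifi47, which lies beyond Tgtp2 on chromosome 11. These 4 genes lie within 192332 bases, and Tgtp1 and Tgtp2 share reads, so they are not separate cases. Ifi47 had 41, 43 and 44 counts with siRNA and 18, 31 and 326 in vehicle 1 to 3, with a log2 fold of 0.80 ± 0.31 (edgeR adjusted p 0.394). Zbp1, a sensor of Z-form nucleic acids, had 66, 76 and 72 with siRNA and 47, 61 and 574 in vehicle, with a log2 fold of 0.40 ± 0.23 (edgeR adjusted p 0.504). Both genes had every siRNA library above vehicle 1 and 2, as did 14.7% of all 232 genes, and below vehicle 3, the order seen in Rsad2. As both were listed with a lower mean for siRNA, the place below vehicle 3 follows from the listing and is not separate evidence.

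The chemokine gene Ccl5 had 213, 245 and 138 counts with siRNA and 182, 152 and 929 in vehicle 1 to 3. Casp4, the mouse caspase that detects bacterial lipopolysaccharide, had 78, 94 and 66 against 83, 78 and 385. Slfn5, of the schlafen family, had 33.8, 29.1 and 41.3 against 38.1, 52.0 and 138. For these 3 genes the siRNA range overlapped vehicle 1 and 2, and vehicle 3 was the highest library. In the second list 1 of the 8 genes rose (Irf5, a transcription factor of the interferon pathway) and 7 fell against all vehicle libraries in limma, where 49.6% of all genes rose and 48.8% fell. Folds below 0 made up 49.0% of that list. Against vehicle 1 and 2, 7 of the 8 could be tested, of which 1 rose and 5 fell, beside 48.4% and 48.9% of all genes, and 49.4% of all folds were above 0. Ifitm2, a further gene of the Ifitm family, had 752, 770 and 770 with siRNA and 884, 848 and 867 in vehicle. It was lower without overlap, as were 53.5% of the 273 genes of this list with genuine values in all libraries.

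Over the 5 libraries other than vehicle 3, the genes most like Rsad2 among 94 compared were Selenop (Pearson r = 0.952 on log2 counts), Slc17a8 (0.931), Ifi47 (0.906), Atg9b (0.899) and Dmp1 (0.857). Selenop is among 17 genes that stand in both lists. Its log2 fold against vehicle 1 and 2 was 0.48 in the count list but −0.47 in the second list. The 2 lists can thus differ in direction for the same gene. With vehicle 3 included r was 0.978 for Selenop and 0.981 for Ifi47, but −0.408 for Slc17a8 and −0.807 for Dmp1. Of the members, Tgtp1 (0.780) and Tgtp2 (0.721) came further down, and Casp12 (−0.530) and Sting1 (−0.615) ran the other way. Gm12185 and Ifitm1 averaged fewer than the 20 counts required in these libraries and were not compared. With vehicle 3 included r was 0.946 for Tgtp1, 0.953 for Tgtp2, 0.824 for Casp12 and 0.851 for Sting1. A high r with vehicle 3 included thus mainly follows the height of that library and does not set a gene apart as like Rsad2. These correlations describe 5 libraries that share their 2 groups.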

How the data were processed

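Poly(A) RNA of 6 libraries was sequenced on a DNA nanoball platform. HISAT, Bowtie2, RSEM and DESeq2 are named by the study or the submitters' processing notes; their versions, the build, the annotation and strand use are not given in the sources read. The authors deposited estimated counts for the 232 genes of the count list, and 86.8% of these values are exactly whole as deposited. Second-list values were deposited under a heading of read counts, but only 0.92% are exactly whole, so they were treated as a score of unknown scale. Of its 3612 cells, 528 in date format (526 equal to the mean of the remaining values of their group within 0.01) and 42 calendar dates were not used. The authors also deposited group means, log2 ratios and p-values, which were not used.

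Estimated counts were rounded and tested with edgeR 4.0.16 (R 4.3.3) with 1 common library size, for genes with a summed count of at least 10. The second list was tested with limma 3.58.1 on log2(value + 0.1), requiring 2 or more genuine values per group. P-values were adjusted by Benjamini-Hochberg over all genes tested (threshold 0.05), and each test was tested on simulated data. Coding sequences were compared in place of the proteins first intended. Alternatives were TMM and column-total scaling, DESeq2 1.42.0, limma-voom, other filters and pseudocounts, a replicate block, and each library left out. The members and lists were chosen with earlier results of these data known. Named are the 9 members, other interferon-list genes averaging 20 or more counts outside vehicle 3, and the 5 genes most like Rsad2; Ifitm2, Irf5 and the cell type markers were named from fixed lists after their values were seen.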

Additional observations from a re-analysis of the deposited data

How the results depend on the processing

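Against vehicle 1 and 2, all 54 values of the members under other scalings, tests, filters and the block kept their direction and side of the threshold. Against all vehicle libraries 37 of 54 did and 17 reversed. With TMM the log2 folds were 0.78 for Rsad2, 0.16 for Sting1, 0.013 for Tgtp1, 0.25 for Tgtp2, 0.80 for Gm12185 and 0.10 for Casp12. With column totals they were 0.65 for Rsad2, 0.10 for Sting1, 0.11 for Tgtp2, 0.66 for Gm12185 and 0.044 for Casp12. With DESeq2's own size factors they were 0.71 for Rsad2, 0.14 for Sting1, 0.19 for Tgtp2, 0.74 for Gm12185 and 0.079 for Casp12, and 1 gene was higher past the threshold. Without overlap, TMM gave 24 genes higher, 1 of them a member, and 12 lower, and column totals gave 12 lower. The cause was not tested beyond the change of scale. With vehicle 1 and 2 alone, TMM called 1 gene lower, and DESeq2 called 1 higher and 2 lower with its own size factors and likewise 1 and 2 with size factors of 1; none was a member.

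Leaving out each library in turn, the log2 fold against all vehicle libraries ranged from −1.50 to 1.05 for Rsad2, −2.32 to 0.35 for Tgtp1, −2.10 to 0.63 for Tgtp2 and −1.49 to 1.21 for Gm12185, positive only without vehicle 3. Genes past the threshold ranged from 0 to 1 higher and 0 to 5 lower, and genes without overlap from 14 to 34 higher and 30 to 70 lower (members 0 to 4 and 1 to 2). For vehicle 1 and 2 alone, the log2 fold ranged from 0.87 to 1.26 for Rsad2, 1.18 to 1.22 for Gm12185, 0.12 to 0.62 for Tgtp1, 0.44 to 0.85 for Tgtp2, −0.21 to −0.039 for Sting1, −0.34 to −0.11 for Casp12 and −0.71 to −0.35 for Ifitm1. Genes lower without overlap ranged from 40 to 71 and members from 1 to 2. Ifitm3 against vehicle 1 and 2 ranged from −0.34 to −0.16 and missed the threshold without vehicle 2. In the second list, requiring genuine values in every library left 122 genes higher and 149 lower against all vehicle libraries. Centring libraries on their medians over the tested genes left 35 higher against vehicle 1 and 2. With medians over genes with genuine values in every library, 0 members were without overlap in either comparison.

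Same-numbered libraries correlated at 0.0618, 0.0514 and 0.123 in the count list and 0.253, 0.123 and 0.0343 in the second, so the numbers were not taken to pair samples. With the replicate block Gm12185 was at 0.057 and Rsad2 at −0.016 against all vehicle libraries, and the block gave 1.04 for Rsad2 and 1.22 for Gm12185 against vehicle 1 and 2. Unknown library depth limits every level given here.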
